A study of Bos taurus with 9 samples.

Results

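Triacylglycerol, the fat stored in adipocytes and muscle fibres, is built from glycerol-3-phosphate in 4 steps. The glycerolipid acyltransferases and the phosphatidic acid phosphatase LPIN1 that catalyse them are described here across muscle and 2 fat depots of cattle. The members were all probe sets of the array annotated with exactly 1 of the 8 symbols GPAT3, GPAM, AGPAT1, AGPAT2, AGPAT3, LPIN1, DGAT1 and DGAT2. This gave 11 of the 24016 probe sets tested. AGPAT3 had 3 probe sets, GPAT3 had 2, and each of the other 6 genes had 1.

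The study used Yan yellow cattle, all bulls of 24 months reared alike, and 9 arrays. The tissues, with 3 arrays each, were longissimus dorsi (the long back muscle), subcutaneous adipose tissue and abdominal adipose tissue, and no treatment or allele is named. Each value is the log2 of the deposited, normalized intensity, so a difference of 1 is a doubling of signal. The labels speak of 9 bulls but tie no sample to an animal, and the p-values cover only sample-to-sample spread, which may be technical in part.

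In the pathway, a glycerol-3-phosphate acyltransferase adds the first fatty acid and an acylglycerol-phosphate acyltransferase (AGPAT) adds the next, giving phosphatidic acid. A lipin removes the phosphate to leave diacylglycerol, and a diacylglycerol acyltransferase (DGAT) adds the last fatty acid. Each step is served by several enzymes that differ in their place in the cell: GPAM sits on the outer mitochondrial membrane, GPAT3 in the endoplasmic reticulum. Phosphatidic acid and diacylglycerol are also the branch points to the membrane phospholipids. In adipose tissue the pathway supplies the lipid droplet, and loss of AGPAT2 causes a congenital lack of body fat.

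The markers followed the labels. All 9 measured adipocyte markers were higher in adipose tissue, where their intensities summed to 38094 to 40909 (abdominal) and 36930 to 38680 (subcutaneous), against 3246 to 7349 in muscle. Of 11 muscle markers 9 were lower in adipose tissue; the brightest probe sets of CKM (1.46) and MYH7 (0.60) were higher, while another probe set of each was far lower (-7.65 and -7.16). Endothelial markers (7 of 8), macrophage markers (7 of 7) and fibroblast markers (6 of 7) were higher in adipose tissue as well, and their part in the differences below was not tested. RNA integrity, read from the 3'/5' ratio of GAPDH controls, moved with tissue too, at 1.21 to 1.74 in fat against 0.94 to 1.01 in muscle. For the actin controls it moved further, from 0.96 to 1.04 in muscle to 2.24 to 8.17 in fat, and the part of RNA integrity in the differences was not tested. In bulk tissue, fewer cells of a type and less RNA per cell cannot be told apart. The array median was 0.12 higher in fat than in muscle, and abdominal minus subcutaneous fat was -0.01.

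Adipose tissue was first compared with muscle. By the brightest probe set of each gene, 6 of the 8 genes were higher in adipose tissue (mean of both depots) than in muscle. They were GPAM, AGPAT1, AGPAT2, AGPAT3, DGAT1 and DGAT2, so the steps of the GPATs, the AGPATs and the DGATs each had a member that rose, while GPAT3 and LPIN1 did not pass. For AGPAT3 this holds for the brightest probe set only. Its second probe set was lower (-0.47), so no direction for AGPAT3 as a gene can be read. Over probe sets, 6 of 11 were higher and 1 was lower at an adjusted p under 0.05 (limma, Benjamini-Hochberg over all 24016). Of all probe sets, 26.2% were higher and 26.4% lower, and by brightest probe set 2926 of 9155 named genes were higher and 2699 lower. In a fit limited to the 12698 probe sets over 6 on at least 3 arrays, 5344 were higher and 3633 lower. Of the 8 member probe sets in that fit, 6 were higher and 1 lower. The median difference of the 8 genes was 1.13, against -0.02 for all 9155 named genes. With each array centred on its median, the median of all probe sets moved by -0.12, and 3 rather than 1 of the 11 were called lower. Of all calls 49.8% were higher as deposited and 39.2% after that centring.

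**Figure D1:**
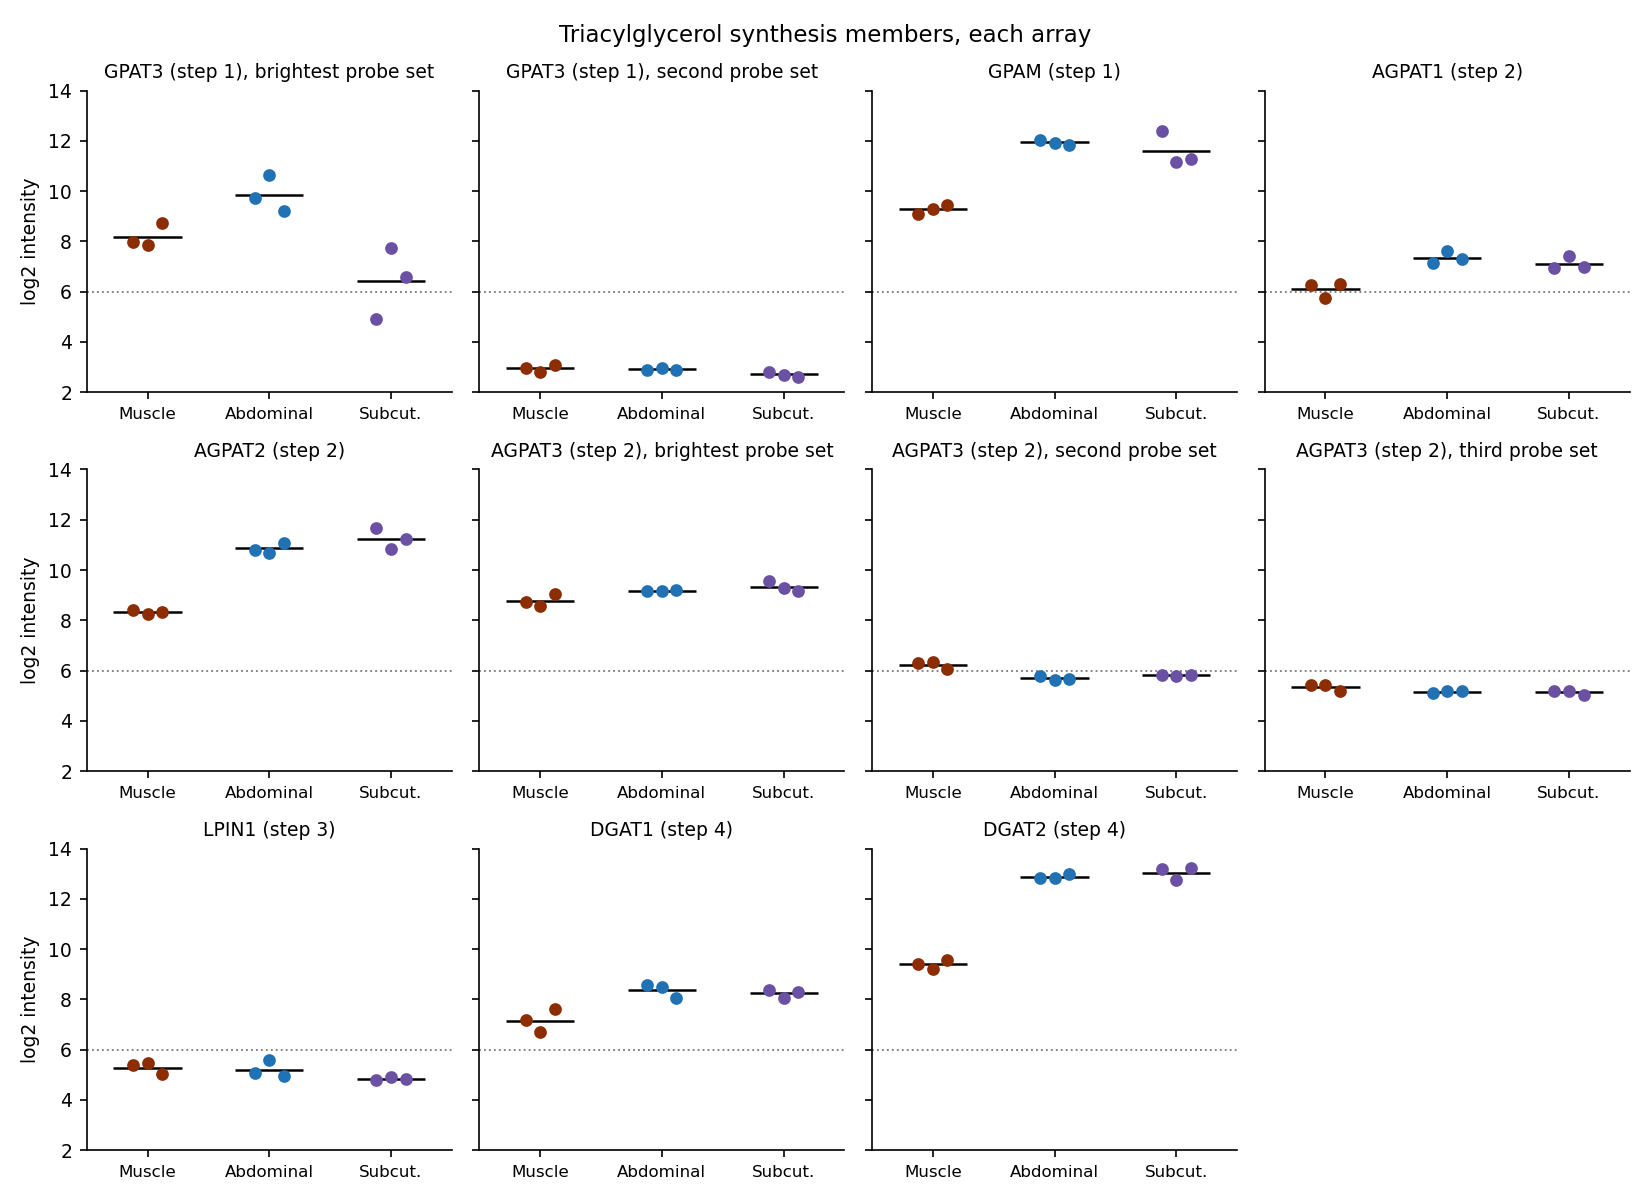
Log2 intensity (vertical axis) of each of the 11 probe sets on each of the 9 arrays, with 3 points per tissue, in replicate order from left to right, and a bar at the tissue mean. The dotted line at 6 marks the level under which a value is taken as near background. DGAT2, AGPAT2 and GPAM are higher on every fat array than on every muscle array, while GPAT3 (brightest probe set) is highest in abdominal and lowest in subcutaneous fat.

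The first acylation gave a different picture for each of its enzymes. GPAM read 9.10, 9.29 and 9.45 in muscle, 12.03, 11.93 and 11.84 in abdominal fat and 12.40, 11.17 and 11.26 in subcutaneous fat. Every fat array was above every muscle array, and the depots overlapped because subcutaneous replicate 1 was the highest of all and the other two the lowest in fat. GPAM was 2.49 ± 0.24 (SE, 3 arrays per tissue) higher in adipose tissue, a 5.61-fold difference (limma adjusted p = 2.03e-05). Between depots GPAM did not pass (0.32, 95% interval -0.31 to 0.96).

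GPAT3, measured by its brightest probe set, read 7.99, 7.87 and 8.71 in muscle, 9.72, 10.65 and 9.21 in abdominal fat and 4.91, 7.72 and 6.58 in subcutaneous fat. No array of a tissue overlapped those of another, and the order was abdominal fat, muscle, subcutaneous fat. The means were 9.86 ± 0.73, 8.19 ± 0.45 and 6.41 ± 1.41 (SD, n = 3). GPAT3 was 1.67 ± 0.62 (SE) higher in abdominal fat than in muscle (limma adjusted p = 0.0495), and the difference between subcutaneous fat and muscle was -1.78 ± 0.62 (adjusted p = 0.0382). Averaged over the depots, the GPAT3 difference from muscle was -0.06 (95% interval -1.26 to 1.14), since the depots lay on opposite sides. Of all probe sets, 38 (0.158%) had the depots on opposite sides of muscle without overlap.

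The GPAT3 probe set varied widely between arrays of 1 tissue. Its pooled SD within tissues was 0.96 against a median of 0.21 over all probe sets, and 0.458% of probe sets had one as large. The other GPAT3 probe set lay between 2.62 and 3.08 on all 9 arrays, near the bottom of the scale, and passed in no comparison of the values as deposited. With centred arrays it passed as lower in adipose tissue (-0.26, limma adjusted p = 0.0492) and in subcutaneous fat (-0.36, adjusted p = 0.0249) than in muscle. The GPAT3 depot pattern therefore rests on a single probe set. The abdominal call against muscle was lost without muscle replicate 1 (limma adjusted p = 0.125), 2 (0.131) or 3 (0.0516), abdominal replicate 1 (0.0888) or 2 (0.159) or subcutaneous replicate 3 (0.0663), and with centred arrays (0.0558). It was also lost with quantile normalization (0.05875) and with log2 of intensity plus 16 (0.056). The subcutaneous call was lost without muscle replicate 1 (0.0727), 2 (0.0604) or 3 (0.109), abdominal replicate 1 (0.0518) or subcutaneous replicate 3 (0.0702). Without subcutaneous replicate 1 the difference was -1.04 (0.113). The subcutaneous call was also lost with log2 of intensity plus 16 (0.0643) and with only the tissues compared in the fit (0.0524).

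The GPAM minus GPAT3 difference within an array lay between 3.45 and 7.48 in subcutaneous fat, between 1.27 and 2.63 in abdominal fat and between 0.74 and 1.42 in muscle. Subcutaneous replicate 1 held the highest GPAM and the lowest GPAT3 of the fat arrays. The difference was 2.55 larger in fat than in muscle (exact permutation test, two-sided, 6 against 3 arrays, p = 0.0476, adjusted p = 0.0476 over 4 pairs). Abdominal and muscle arrays overlapped in it, and without subcutaneous replicate 1 it was 1.78.

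Of the AGPATs, which acylate lysophosphatidic acid, AGPAT2 differed most. AGPAT2 read 8.42, 8.27 and 8.32 in muscle, 10.81, 10.70 and 11.07 in abdominal fat and 11.67, 10.84 and 11.25 in subcutaneous fat. Muscle was tight and low, and the depots overlapped. AGPAT2 was 2.72 ± 0.17 (SE) higher in adipose tissue, or 6.58-fold (limma adjusted p = 1.29e-06), and 1.05% of all probe sets had a difference as high. Subcutaneous fat had the higher mean of the depots, and that difference did not pass (-0.39, 95% interval -0.83 to 0.05, adjusted p = 0.421).

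AGPAT1, a widely expressed AGPAT of the endoplasmic reticulum, read 6.27, 5.74 and 6.32 in muscle, 7.13, 7.60 and 7.32 in abdominal fat and 6.92, 7.43 and 6.97 in subcutaneous fat. The fat arrays were all above the muscle arrays, which lay close to background. AGPAT1 was 1.12 ± 0.18 (SE) higher in adipose tissue, or 2.17-fold (limma adjusted p = 0.000492), and the depots differed by 0.24 (95% interval -0.22 to 0.70).

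The AGPAT3 probe sets disagreed in direction. The brightest read 8.73, 8.59 and 9.04 in muscle, 9.16, 9.16 and 9.22 in abdominal fat and 9.58, 9.29 and 9.17 in subcutaneous fat. It was 0.47 ± 0.13 (SE) higher in adipose tissue (limma adjusted p = 0.0135). The next probe set read 6.30, 6.33 and 6.05 in muscle and 5.61 to 5.83 on the 6 fat arrays, and differed by -0.47 ± 0.10 (adjusted p = 0.00353). Both kept fat and muscle arrays apart, in opposite directions and by 1.39-fold as deposited. The lower of these probe sets lay under 6 on every fat array, so its size is not exact. It was -0.38 with log2 of intensity plus 16 and -0.64 with quantile normalization. The dimmest probe set, at 5.05 to 5.43, did not pass (-0.20, adjusted p = 0.132). No direction for the AGPAT3 gene as a whole can be read from these values. The call of the brightest probe set was lost without muscle replicate 2 (adjusted p = 0.0613).

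The AGPAT enzymes differed from each other in how far they moved. AGPAT1 minus AGPAT2 within an array was -2.53 to -2.00 in muscle and -4.74 to -3.10 on the fat arrays, a shift of -1.60 or 3.04-fold. AGPAT3 (brightest probe set) minus AGPAT2 was 0.32 to 0.72 in muscle and -2.08 to -1.54 in fat, a shift of -2.24 or 4.74-fold. In both pairs fat and muscle arrays did not overlap (exact permutation test, two-sided, p = 0.0238, the smallest that 6 against 3 arrays allow; adjusted p = 0.0317 over 4 pairs). The test takes the arrays as independent, which the labels do not settle. In signal, AGPAT2 thus rose by more than AGPAT1 and the AGPAT3 probe set in these samples. AGPAT1 lay close to background in muscle, at 5.74 to 6.32, so the size of its shift is not exact.

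**Figure D2:**
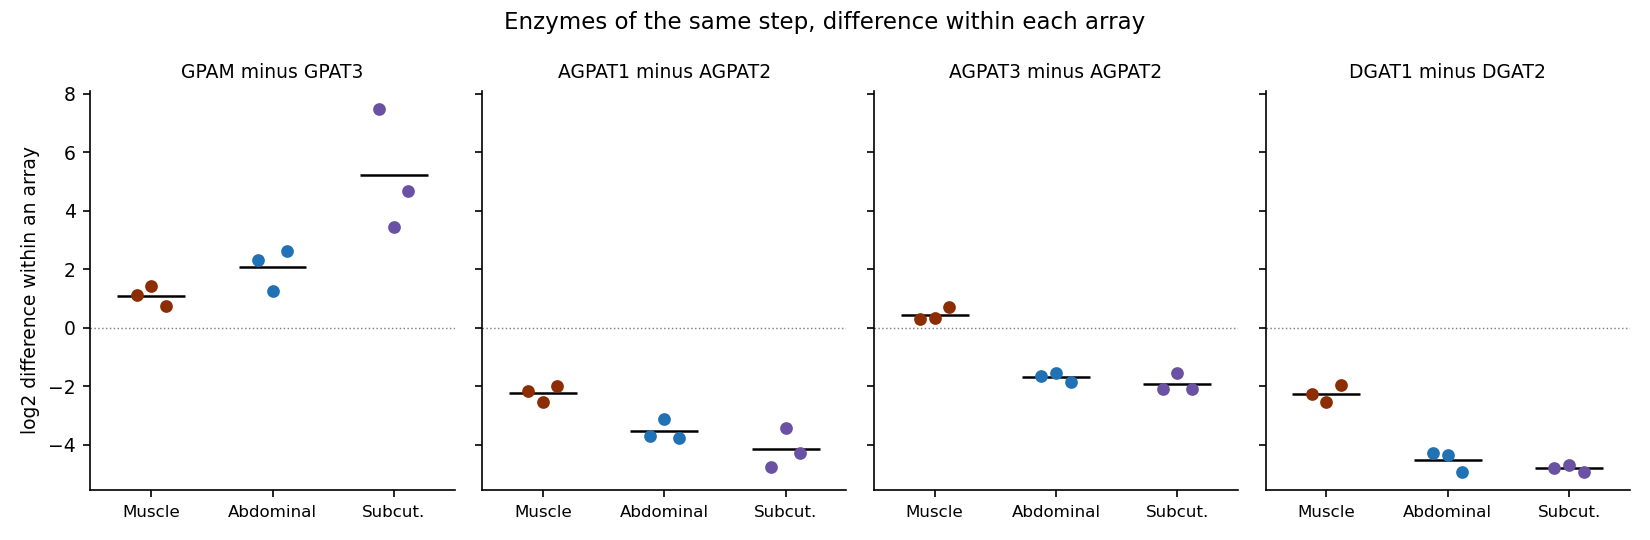
Log2 difference (vertical axis) between the brightest probe sets of enzymes of the same step, taken within each of the 9 arrays, with a bar at the tissue mean. A vertical position compares probe sets of different sequence and is not a ratio of transcripts. What can be read is the change between tissues, whose size is not exact near background or the top of the scale. The DGAT1 minus DGAT2 difference falls from between -2.53 and -1.97 in muscle to between -4.92 and -4.28 in fat.

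LPIN1, the lipin of muscle and adipose tissue, which also acts as a transcriptional coactivator in the nucleus, was represented by 1 dim probe set. It read 5.37, 5.46 and 5.02 in muscle, 5.06, 5.57 and 4.94 in abdominal fat and 4.79, 4.92 and 4.82 in subcutaneous fat. All 9 values lay under 6, the level taken here as near background, so a missed threshold says little about the transcript. Subcutaneous arrays were below those of both other tissues. The difference from muscle was -0.44 ± 0.18 (SE) in subcutaneous fat (limma adjusted p = 0.0704) and -0.10 ± 0.18 in abdominal fat (adjusted p = 0.698). With arrays centred on their medians the subcutaneous value passed (-0.57, adjusted p = 0.0273).

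The last acylation had the largest difference among the members. DGAT2, which works at the endoplasmic reticulum and the lipid droplet, read 9.42, 9.22 and 9.57 in muscle, 12.83, 12.83 and 12.98 in abdominal fat and 13.18, 12.73 and 13.21 in subcutaneous fat. Muscle stood more than 3 log2 units below every fat array, and the depots overlapped. Only 60 of the 24016 probe sets had a difference from muscle as high as that of DGAT2, which was 3.56 ± 0.14 (SE) in adipose tissue, or 11.8-fold (limma adjusted p = 5.72e-08). The array maxima were 13.65 to 13.81 in fat, so DGAT2 lay near the top of the scale there and its size is not exact. The depots differed by -0.16 (95% interval -0.52 to 0.20).

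DGAT1, an enzyme of the endoplasmic reticulum that is unrelated in sequence to DGAT2, read 7.17, 6.69 and 7.61 in muscle, 8.56, 8.49 and 8.05 in abdominal fat and 8.38, 8.05 and 8.30 in subcutaneous fat. The fat arrays were all above the muscle arrays, by less than for DGAT2. DGAT1 was 1.15 ± 0.20 (SE) higher in adipose tissue, or 2.22-fold (limma adjusted p = 0.000847), and the depots differed by 0.12 (95% interval -0.39 to 0.64). DGAT1 minus DGAT2 within an array shifted by -2.41 between muscle and fat, or 5.31-fold, with no overlap (exact permutation test, two-sided, p = 0.0238, adjusted p = 0.0317 over 4 pairs). DGAT2 thus rose by more than DGAT1, and the probe sets do not say how much of each transcript was present.

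Among the muscle arrays, replicate 2 was the lowest for 6 of the 8 genes by brightest probe set, all but GPAM and LPIN1. Over all probe sets it was the lowest in 30.9%. The summed intensity of the adipocyte markers was 7349, 3246 and 6623 on muscle replicates 1, 2 and 3, so replicate 2 was also the lowest there. It was likewise the lowest for the summed macrophage markers (2471, 1007 and 1418) and fibroblast markers (17112, 10893 and 18473), and the highest for the muscle markers (80791, 92214 and 75651). The blood markers were lowest there too (329.7, 212.9 and 240.9). The endothelial (1032.9, 1136.6 and 1275.9) and mesothelial markers (161.9, 161.1 and 146.1) were not. The part of these other cell types in the member values was not tested.

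Each depot was also set against muscle by itself, and both comparisons share the muscle arrays. In abdominal fat 6 of the 11 probe sets were higher and 1 lower, against 23.5% and 23.1% of all probe sets. In subcutaneous fat 6 were higher and 2 lower, against 24.6% and 22.4%. With centred arrays these counts were 5 and 1, and 6 and 5, while the share of all calls that were higher moved from 50.5% to 40.1% in abdominal and from 52.3% to 41.2% in subcutaneous fat. GPAM was 2.65 ± 0.28 (SE) higher in abdominal and 2.33 ± 0.28 higher in subcutaneous fat. For AGPAT2 these values were 2.52 ± 0.20 and 2.91 ± 0.20, and for DGAT2 3.48 ± 0.16 and 3.64 ± 0.16. DGAT1 gave 1.21 ± 0.23 and 1.09 ± 0.23. AGPAT1 was 1.24 ± 0.21 higher in abdominal fat, and its subcutaneous mean was 7.11 against 6.11 in muscle (limma adjusted p = 0.00285). The brightest AGPAT3 probe set passed in subcutaneous fat (0.56, limma adjusted p = 0.014) and not in abdominal fat (0.39, adjusted p = 0.061), although no abdominal array overlapped muscle; the difference between its depots did not pass (-0.17, 95% interval -0.51 to 0.18, adjusted p = 0.72).

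**Figure D3:**
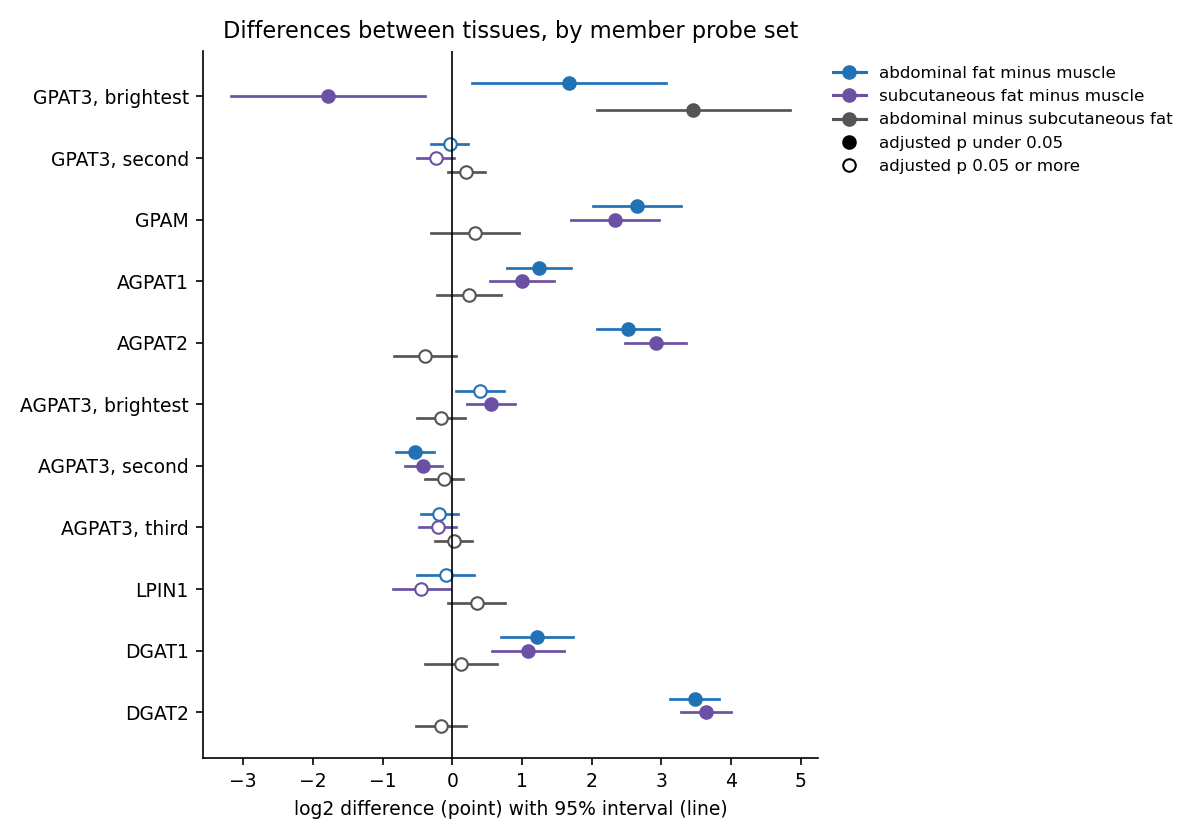
Log2 difference (horizontal axis; point, with its 95% interval as a line) for each of the 11 probe sets in 3 comparisons, filled where the adjusted p is under 0.05. GPAM, AGPAT1, AGPAT2, DGAT1 and DGAT2 lie to the right of 0 in both depots, with a depot difference whose interval includes 0, and only the brightest GPAT3 probe set has a filled depot difference (3.45).

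Between the depots, GPAT3 was the member that differed. It was 3.45 ± 0.62 (SE) higher in abdominal than in subcutaneous fat, or 10.97-fold (limma adjusted p = 0.0349), with all 3 abdominal arrays above all 3 subcutaneous arrays. Subcutaneous replicate 1, at 4.91, lay under 6, so this size is not exact. Only 3 of the 24016 probe sets, this one included, had a difference as high in that direction. In this comparison 1 of 11 member probe sets was called higher and none lower, against 0.641% of all probe sets higher and 0.666% lower, and 1 of the 11 had an unadjusted p under 0.05. Arrays did not overlap, with abdominal fat higher, for both GPAT3 probe sets and LPIN1, 3 of 11, against 9.69% of all probe sets. The second GPAT3 probe set and LPIN1 lay under 6 on every array and did not pass, so their lack of overlap says little about the transcripts.

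The size of the GPAT3 depot difference was 2.71 to 4.11 under every setting tried, and its call was not firm. It was lost without abdominal replicate 1 (limma adjusted p = 0.0847), 2 (0.112) or 3 (0.0831), without subcutaneous replicate 1 (0.0666) or 3 (0.093) and without muscle replicate 1 (0.0606). It held without muscle replicate 2 (0.0437) or 3 (0.0416) and without subcutaneous replicate 2 (0.0273). Subcutaneous replicate 1, the lowest GPAT3 array, had the highest 3'/5' ratio of the actin controls (8.17, against 2.24 to 5.69 on the other fat arrays). Abdominal replicate 2, the highest GPAT3 array, had the next highest ratio (5.69). The GAPDH ratio was also highest on subcutaneous replicate 1 (1.74) and abdominal replicate 2 (1.62), against 1.21 to 1.42 on the other fat arrays. The ratio of the EF1a controls was not (0.55 and 0.56, against 0.47 to 0.65). The summed endothelial markers also moved with depot, at 5714 to 6486 on the abdominal and 3916 to 4296 on the subcutaneous arrays, and the mesothelial markers read 151.8 to 582.6 and 164.2 to 220.4. The part of RNA integrity and of these markers in the GPAT3 difference was not tested.

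**Figure D4:**
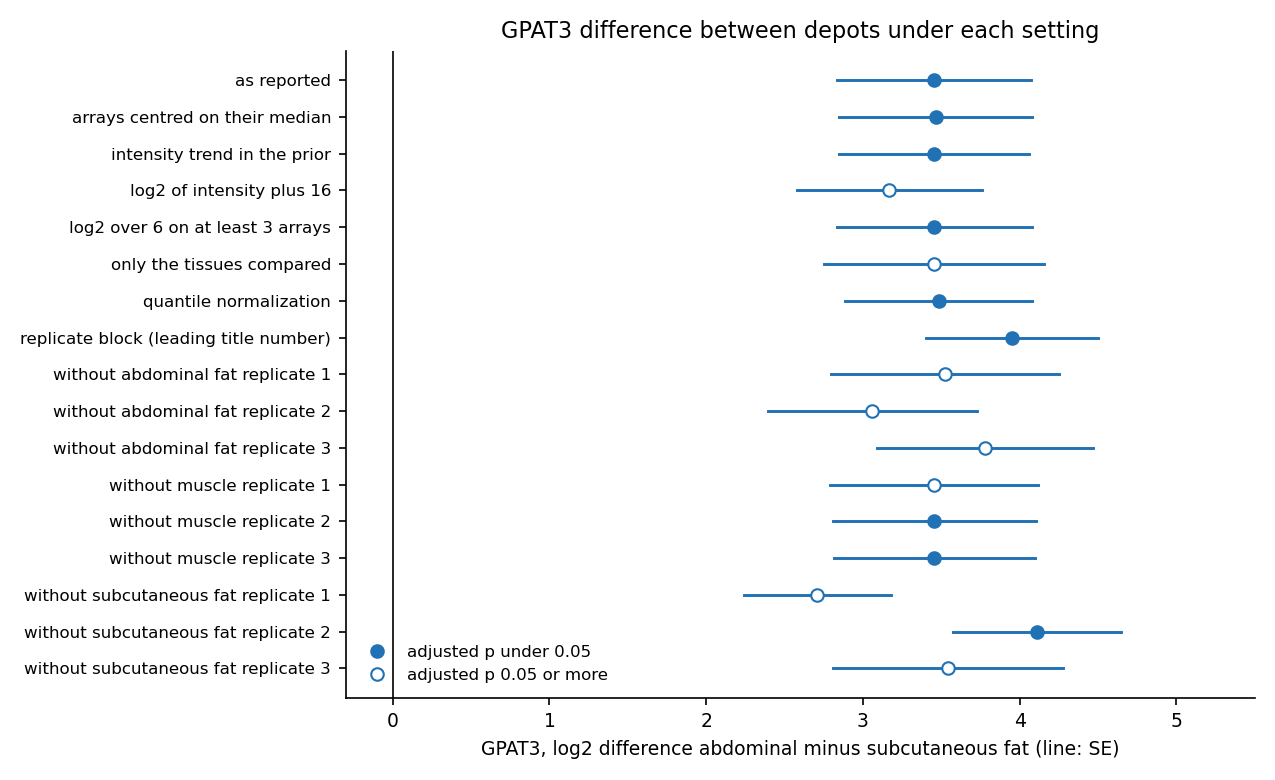
Log2 difference of the brightest GPAT3 probe set between abdominal and subcutaneous fat (horizontal axis; point, with its SE as a line) as reported and under 16 other settings, filled where the adjusted p is under 0.05. All points lie between 2.71 and 4.11, and 8 of the 16 other settings are filled.

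The depot intervals of the other members give a range for each difference, with no adjustment for the number of probe sets. For GPAM, AGPAT1, AGPAT2, the brightest AGPAT3 probe set, DGAT1 and DGAT2 the 95% intervals of abdominal minus subcutaneous fat all included 0. They reached from -0.83 (AGPAT2) to 0.96 (GPAM). A p that misses the threshold does not show that the depots express these genes alike.

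The other enzymes of each step were counted from lists of the pathway, by brightest probe set, and can be read against the 2926 of 9155 named genes that were higher, the 2699 that were lower and their median difference of -0.02. At the first step, GPAT4, the other acyltransferase of the endoplasmic reticulum, and GNPAT, the peroxisomal enzyme of ether lipid synthesis, were the measured genes. Both were lower in adipose tissue, GPAT4 by -0.81 ± 0.13 (SE; limma adjusted p = 0.000645) and GNPAT by -1.04 ± 0.12 (adjusted p = 6.64e-05). GPAT4 thus moved opposite to GPAM, and its other probe set differed by -0.57 (adjusted p = 0.0136).

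At the second step and in the related lysophospholipid acyltransferases, 5 of 8 measured genes were higher and 1 lower (median 0.33). The lower gene was AGPAT5, a mitochondrial AGPAT, which stood at 10.72 in muscle, 8.31 in abdominal and 8.26 in subcutaneous fat. Its difference was -2.44 ± 0.10 (SE; limma adjusted p = 7.92e-08), and its 4 other probe sets differed by -2.38 to -2.04. AGPAT2 and AGPAT5 therefore lay on opposite sides of 0 by similar sizes. MBOAT1 (1.39) and LPCAT1 (1.35), which acylate lysophospholipids, were among the higher genes, with muscle means under 6, so these sizes are not exact. LPCAT2 was also higher (0.66), but stood under 6 in every tissue (4.54 to 5.22), so its size is not exact either. AGPAT4 was near background in every tissue (4.52 to 4.86) and did not pass (-0.20, adjusted p = 0.432). With centred arrays 2 of the 8 were higher, and with quantile normalization 3 higher and 2 lower.

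For the third step the listed LPIN1 paralogues, LPIN2 and LPIN3, had no probe set with 1 symbol and were not analysed here. CTDNEP1, the phosphatase that activates lipins by removing their phosphates, was lower in adipose tissue (-1.36 ± 0.16, SE; limma adjusted p = 5.59e-05), and its partner CNEP1R1 differed by -0.06 (adjusted p = 0.719). The lipid phosphate phosphatases, which act on phosphatidic acid and other lipid phosphates, were split. PLPP3 (1.67) and PLPP2 (0.86) were higher and PLPP1 lower (-0.41, adjusted p = 0.0301), so 2 of 5 genes in this list were higher and 2 lower (median -0.06). With quantile normalization 1 was higher and 1 lower. Of the other PLPP3 probe sets, the brighter differed by 2.38 and the dim one by -0.14 (adjusted p = 0.262).

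In the acyltransferases that resemble the fourth step, 2 of 4 were higher and 2 lower (median 0.22; 2 and 1 with quantile normalization). MOGAT1, which makes diacylglycerol from monoacylglycerol, differed by -1.55 ± 0.14 (SE; limma adjusted p = 1.47e-05), but stood under 6 in every tissue, so this size is not exact. SOAT1 (0.97), a cholesterol acyltransferase, was higher and SOAT2 (-0.52, adjusted p = 0.0426) lower, SOAT2 also near background at 4.00 to 4.53. LCAT, the plasma cholesterol acyltransferase, was 2.07 higher, with other probe sets at 2.44 and, near background, -0.09 (adjusted p = 0.668).

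The phospholipid branch had 10 of 14 genes higher and 2 lower (median 0.71). PEMT, which methylates phosphatidylethanolamine, was 2.07 ± 0.22 (SE) higher (limma adjusted p = 2.94e-05), and CDS2, which draws phosphatidic acid away into CDP-diacylglycerol, 1.87 ± 0.23 higher (adjusted p = 7.71e-05). The diacylglycerol kinase DGKA, which reverses the lipin step, was 1.29 higher (muscle mean under 6) and the phosphatidylinositol synthase CDIPT 0.93 higher. The lower genes were CRLS1, the cardiolipin synthase of mitochondria (-0.91, adjusted p = 0.00761), and the kinase DGKD (-0.69, adjusted p = 0.0239). With centred arrays or quantile normalization 8 of the 14 were higher.

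Of the regulators 8 of 12 were higher and 2 lower (median 0.61). PPARG, the nuclear receptor of adipocyte differentiation, was 4.24 ± 0.20 (SE) higher (limma adjusted p = 2.29e-07). BSCL2, or seipin, which organizes droplet formation and binds enzymes of this pathway, was 2.49 higher and FITM2, a droplet protein of the endoplasmic reticulum, 2.16 higher. The other BSCL2 probe set, near background, differed by -0.08 (adjusted p = 0.568). PPARGC1A, the coactivator with which LPIN1 is known to act, was lower (-2.98 ± 0.31; adjusted p = 3.24e-05), with fat means of 4.95 and 4.55. SREBF1, a factor known to induce GPAM, did not pass by its brightest probe set (0.23, limma adjusted p = 0.484) or by those that differed by 0.03 and 0.34. Its dimmest, near background, differed by -0.86 (adjusted p = 0.000206). INSIG1 did not pass (0.75, adjusted p = 0.113). With centred arrays 6 and with quantile normalization 5 of the 12 were higher. Of the genes of breakdown and its control, all 5 measured were higher (median 2.88) and stayed so under both scalings. Among them were LIPE (3.82), PNPLA2 (1.27) and G0S2 (3.40), an inhibitor of PNPLA2. Other LIPE probe sets differed by 3.80 and, with means under 6, by 0.47 and 0.02 (limma adjusted p = 0.933 for the last).

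**Figure D5:**
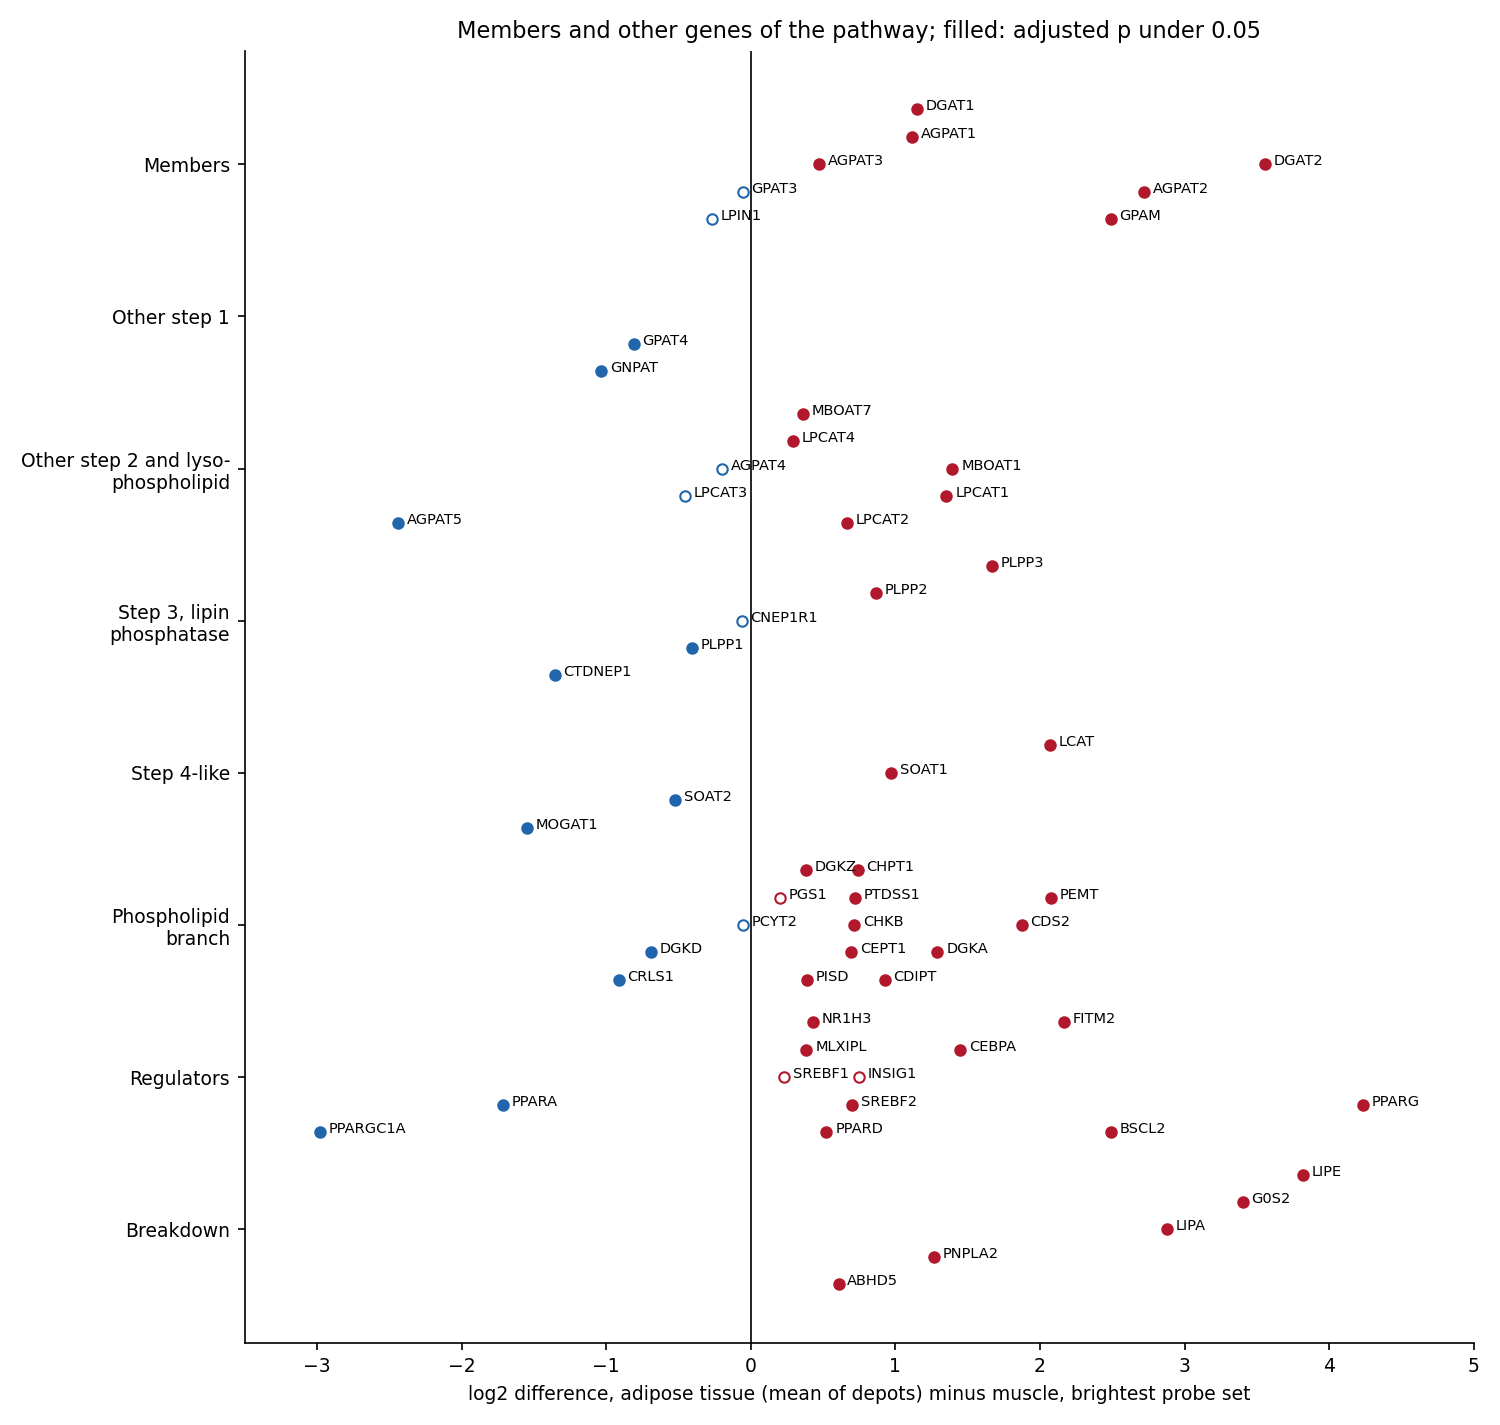
Log2 difference between adipose tissue (mean of depots) and muscle (horizontal axis) for the brightest probe set of each member and of the other measured pathway genes, in rows by step; filled points have an adjusted p under 0.05, red points lie above 0 and blue below. Vertical offsets within a row only separate the labels. GPAT4, GNPAT and AGPAT5 lie left of 0 while GPAM and AGPAT2 lie right of 2.

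Between the depots few genes passed at all: of all named genes, 0.808% were higher and 0.688% lower in abdominal fat, and 1651 of the 9155 had an unadjusted p under 0.05. Of the listed genes of the 4 steps and the phospholipid branch 0 of 33 passed (limma; 8 had an unadjusted p under 0.05), and of the regulators 0 of 12 passed (0 with an unadjusted p under 0.05). Counts of 0 in lists of this size are near that background and are not a result about these genes. In the list of glycerol-3-phosphate supply 3 of 6 genes were higher and 2 lower in adipose tissue. Its member GK, the kinase that makes glycerol-3-phosphate from glycerol, was named after its values were seen, and it passed between the depots. It stood at 6.88 in muscle, 6.00 in abdominal and 4.66 in subcutaneous fat, with a depot difference of 1.34 ± 0.21 (SE; limma adjusted p = 0.0263). Its fat means lay at or under 6, so this size is not exact. Like GPAT3 it was lowest in subcutaneous fat, but unlike GPAT3 it was highest in muscle.

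The genes with the most similar profile were found for the 6 members that passed with a difference of at least 1. Likeness was the root mean square difference over the 9 arrays between log2 values centred on each gene's mean, among 9027 other genes. All 9 arrays enter this measure, so the difference between fat and muscle counts towards it. For DGAT2 the nearest genes were PPP1R1B (0.22), a phosphatase inhibitor, and FZD4 (0.22), a Wnt receptor, which differed between adipose tissue and muscle by 3.38 and 3.29. For AGPAT2 they were MAOB (0.19), a mitochondrial amine oxidase, and C1QTNF1 (0.20), a secreted adiponectin paralogue. For GPAM they were BCAT2 (0.25), which starts branched-chain amino acid breakdown, and CD93 (0.28), an endothelial receptor. AGPAT1 lay nearest to TAMALIN (0.12) and USP46 (0.14), and DGAT1 to PPIL4 (0.13) and the endoplasmic reticulum chaperone PDIA4 (0.15). MAOB read 10.47 on subcutaneous replicate 1, its highest array, and AGPAT2 was also highest there.

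GPAT3 had no close neighbour. Its nearest genes were the nuclear receptor NR4A1 at 0.92 and the cysteine dioxygenase CDO1 at 0.96, against a profile SD of 1.61 for GPAT3 itself and a median distance of 1.68 to all genes. NR4A1 had tissue means of 10.19 in abdominal fat, 9.32 in muscle and 8.55 in subcutaneous fat, and CDO1 of 8.00, 7.33 and 6.30. Both followed the order of GPAT3 with a smaller depot difference (1.64 and 1.70, against 3.45), and the smaller difference is a description of nearest genes, with no test.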

How the data were processed

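For each array, a 1-colour Affymetrix bovine design, the authors deposited an intensity per probe set. The submitters' processing notes name RMA without a version. The deposited intensities, 3.06 to 17450.5, are on a linear scale, so log2 was taken with no further scaling or filter. The 112 control probe sets were left out and 24016 tested; 13292 carried 1 symbol, through a gene identifier where possible. The brightest probe set (highest mean over the arrays) stood for a gene. limma 3.58.1 (R 4.3.3) fitted the mean of each tissue over the 9 arrays (6 residual and 3.752 prior degrees of freedom), two-sided, with Benjamini-Hochberg adjustment over all probe sets and a threshold of 0.05. Intervals use the moderated SE. Pairs of enzymes were compared by exact permutation tests (scipy 1.17.1), which took the 9 arrays as independent and were not run with the replicate block named below. The fit was tested on simulated data with known differences. Named were all member probe sets, up to 4 passing genes per list (steps 1 to 4, branch, regulators) with the largest difference, and 2 nearest genes per member. The breakdown genes, GK, CNEP1R1, AGPAT4, CRLS1, DGKD, SREBF1 and INSIG1 fall outside this rule and were chosen after their values were seen. Members and lists were chosen with earlier results of these data known. Alternatives were median centring, quantile normalization, log2 of intensity plus 16, a filter on dim probe sets, an intensity trend in the prior, only the tissues compared, a replicate block and leaving out each array. No sequence is printed, and no coordinates were used.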

Additional observations from a re-analysis of the deposited data

Results flagged for a closer look

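GPAT3 (brightest probe set) differed in opposite directions from muscle in the depots. Every abdominal array lay above and every subcutaneous array below the muscle arrays, and the difference itself, abdominal minus subcutaneous fat, was 3.45 ± 0.62 (SE; limma adjusted p = 0.0349). Of the 38 probe sets with the depots on opposite sides of muscle without overlap, 17 had abdominal fat above, and 11 of the 38 passed in all 3 pairwise comparisons, GPAT3 among them.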

How the results depend on the processing

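GPAM, AGPAT1, AGPAT2, DGAT1 and DGAT2 kept their direction and their call against muscle under all alternatives run. The depot count over all probe sets was 314 and fell to 118 with a replicate block on the number that opens each title, a fit in which abdominal replicate 3, alone in its number, has no weight; leaving out 1 array gave 57 to 491, and the cause was not tested. Same-numbered samples deviated together with a correlation of 0.04 to 0.36 in 7 pairs, against -0.32 to 0.17 in the 20 others. Between the depots the same-numbered pairs stood at 0.33 and 0.36, and the others at -0.32 to 0.09. Deviations from a mean of 3 arrays cancel out within a tissue. Positive values in some pairs therefore force negative ones in others, and the 2 sets of pairs are not independent. Whether same-numbered samples share an animal was not tested. The GPAT3 depot call held in the replicate block (3.95, limma adjusted p = 0.0476). Of the member probe sets, 0 were called between the depots with log2 of intensity plus 16 (limma; GPAT3 adjusted p = 0.0516) and 0 with only the depots in the fit (0.065); 1 had an unadjusted p under 0.05 in each. The count was 0 to 1 when 1 array was left out. GPAT3 passed against muscle in 7 (abdominal) and 8 (subcutaneous) of 16 alternatives. Its adipose difference, -0.06, turned to 0.0347 with log2 of intensity plus 16 and 0.19 with the block, and was -0.39 to 0.32 with 1 array left out. Also near 0, the second GPAT3 probe set in abdominal fat turned to 0.0858 with quantile normalization (-0.10 to 0.0298 with 1 array left out), the third AGPAT3 probe set between depots to -0.0582 with the block (-0.0279 to 0.043), and LPIN1 in abdominal fat ranged from -0.28 to 0.0275. The shifts of enzyme pairs were -1.75 to -1.42 (AGPAT1 minus AGPAT2), -2.31 to -2.11 (AGPAT3 minus AGPAT2), -2.55 to -2.27 (DGAT1 minus DGAT2) and 1.78 to 3.02 (GPAM minus GPAT3) with 1 array left out; with 2 muscle arrays their exact test cannot pass. The subcutaneous call of the brightest AGPAT3 probe set was lost without subcutaneous replicate 1 (adjusted p = 0.0562), and that of the second without muscle replicate 1 (0.0516) or subcutaneous replicate 2 (0.0508). Probe sets under 6 are near background.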
